A study of Mus musculus with 8 samples.

Results

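Genes of cholesterol and fatty acid synthesis were examined in an IL-18Rα-hi-enriched fraction of CD8+ T cells and in the cells left after that enrichment. IL-18Rα is the chain of the interleukin-18 receptor that binds the cytokine. The module was a list of 35 genes picked by name: 6 of the mevalonate pathway, 11 of the sterol branch, 5 of the SREBP machinery, 10 of fatty acid synthesis and 3 of sterol efflux. Of these, 34 were found among the 47493 entries of the expression table, and *Mvd* was not found under that name and was not analysed here. Values are FPKM, the number of sequenced fragments divided by transcript length and library depth. All 34 genes found had a mean of at least 1 FPKM, the level at which 12166 genes were tested.

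Cells build cholesterol from acetyl-CoA through mevalonate, farnesyl diphosphate, squalene and a series of sterol intermediates, and build fatty acids from acetyl-CoA through malonyl-CoA. Both routes are controlled by SREBP transcription factors, which leave the endoplasmic reticulum with their escort SCAP when sterols are low and are held there by INSIG proteins when sterols are high. In T cells these routes are known to be switched on by antigen stimulation to supply growing membranes, while the LXR receptors switch on sterol export.

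Both fractions came from the same 4 female C57BL/6 mice, 6 to 8 weeks old at the start, and shared every treatment. Each mouse was given 200000 B16F10 cells, a mouse melanoma line, into the skin on day 0 and cyclophosphamide, a lymphocyte-depleting drug, at 300 mg/kg on day 3. On day 5 it received 2000000 Pmel-1 cells (ex vivo-primed CD8+ T cells that carry Thy1.1 and a transgenic receptor for a melanoma antigen) with 10000 IU of IL-2 a day for 3 days, and from day 10 a depleting anti-CD4 antibody at 200 μg a week for 3 weeks. On day 25, Thy1.1-negative CD8+ T cells, which are the host's own, were isolated with beads from inguinal lymph nodes and spleen, and cells held on a column through a labelled IL-18Rα antibody gave 4 IL-18Rα-hi-enriched libraries while the cells that ran through gave 4 flow-through libraries. Neither fraction was sorted by a gate, so the flow-through is the remainder of a bead preparation and not a defined IL-18Rα-low population.

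The libraries summed to 656700 to 711700 FPKM, the estimated depth was 14600000 to 17700000 fragments, and 11706 to 12288 genes per library reached 1 FPKM. *Il18r1*, the selected gene, reached 110.8 ± 3.87 FPKM in the enriched fraction and 30.6 ± 6.96 in the flow-through (SD, n = 4). The 10 CD8 T-cell identity genes summed to 1712 to 3224 FPKM in the flow-through, with the lowest sum in flow-through replicate 1, and to 3334 to 3561 in the enriched fraction. Markers of other cells were present in both fractions and none of those listed was at 0 in all libraries. The summed level of 14 erythroid progenitor genes was 958.9 to 2696 FPKM in the flow-through, highest in replicate 1, against 190 to 720.5 in the enriched fraction, and that of 6 hematopoietic progenitor genes was 230.1 to 290.2 against 83.7 to 98.3. Myeloid markers went the other way, from 143 to 541.6 FPKM in the flow-through and from 455.1 to 1568 in the enriched fraction. NK markers did too, with 72.1 to 202.3 against 221.4 to 434.4. Most of the NK sum was *Tyrobp* in both fractions, and the list also holds *Ncr1*, *Klrb1c* and *Klrk1*. The paper reports these last genes as upregulated in the IL-18Rα-hi-enriched T cells themselves. The NK sum can therefore not be read as NK-cell content. B-cell markers summed to 25.7 to 66.5 against 42.1 to 87.2, plasma cell markers to 332.9 to 1329 against 607.7 to 1596, and globin genes to 204.2 to 1055 against 117.4 to 1146. In such bulk libraries, fewer cells of a type and less RNA per cell cannot be told apart.

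On FPKM as deposited, 8 of the members were higher in the enriched fraction, all of them sterol or SREBP genes. After T-cell scaling of all 8 libraries, described below, 0 of the 8 were called and 3 (*Msmo1*, *Ebp* and *Insig1*) changed sign. On FPKM as deposited with the mouse as a block, the fatty acid members *Scd2* and *Fads2* were also called, the first higher and the other lower. With limma on log2(FPKM + 1) and Benjamini-Hochberg adjustment over the 12166 genes, 8 of 34 members were higher at an adjusted p under 0.05, against 14.1% of all genes tested, and 0 were lower, against 13.7% of all genes. At an unadjusted p under 0.05 the counts were 10 higher and 3 lower, against 2433 and 2594 of the 12166 genes. The 8 were *Hmgcs1* of the mevalonate pathway, *Fdft1*, *Cyp51*, *Msmo1*, *Ebp* and *Sc5d* of the sterol branch, and *Srebf2* and *Insig1* of the SREBP machinery. Fatty acid synthesis (0 of 10) and sterol efflux (0 of 3) held no call in either direction, with 1 and 0 members higher and 2 and 0 lower at an unadjusted p under 0.05. The libraries of the fractions did not overlap for 8 members that were higher, against 16.4% of all genes, and for 1 that was lower (*Scap*), against 15.9%. Of the 34 members 25 had a positive log2 fold change (73.5%, and 48.0% of all genes), and their median was 0.13 against -0.02 over all genes.

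These counts depend on how the libraries are scaled. T-cell scaling, which divides each library by the geometric mean of its 10 CD8 T-cell identity genes, moved the median over all genes from -0.02 to -0.37 on the log2 scale and the share of higher calls among all calls from 50.8% to 26.8%. After it, 0 members were higher by limma (4.28% of all genes) and 1 was lower, *Abca1* (11.7% of all genes). At an unadjusted p under 0.05, 0 were higher and 5 lower, against 832 and 3995 of the 12166 genes. Relative to the shifted median of all genes, the 8 members lay 0.33 to 0.79 higher on the log2 scale. Dividing a library by a single factor moves all its genes nearly alike. This distance was therefore set by the unscaled values and is no further result. The library factors were 0.57 in flow-through replicate 1, 0.91 to 1.08 in the other flow-through libraries and 1.12 to 1.19 in the enriched libraries. Without mouse 1, which gave that replicate, T-cell scaling called 4 members higher (8.56% of all genes), namely *Hmgcs1*, *Cyp51*, *Sc5d* and *Srebf2*, and 3 lower (18.5% of all genes), namely *Fads2*, *Abca1* and *Abcg1*. Below, "higher" and "lower" are on FPKM as deposited unless the scaling is named.

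**Figure D1:**
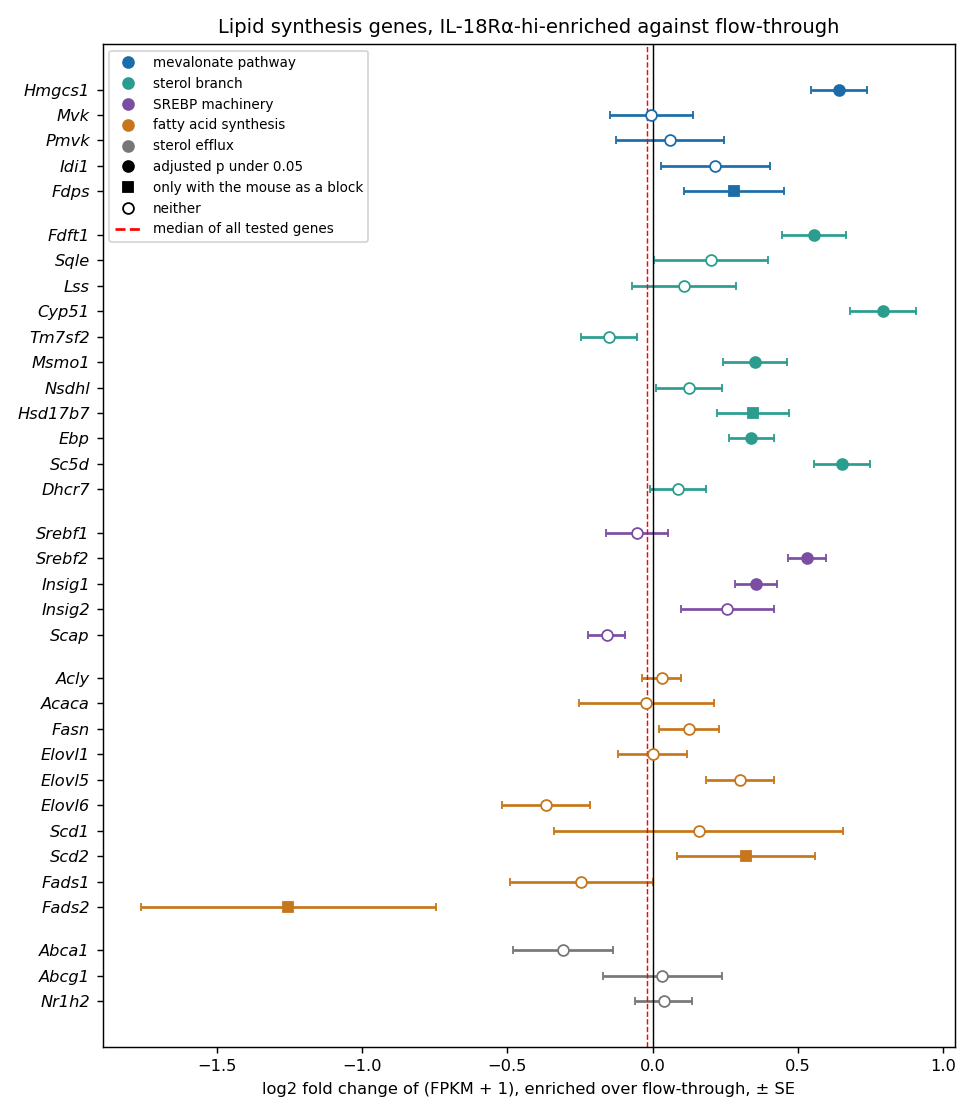
Log2 fold change of (FPKM + 1), enriched over flow-through, with its SE from limma (x axis) for the 34 members by role (y axis). Filled circles passed an adjusted p of 0.05, squares passed it only with the mouse as a block, and the dashed line is the median of all genes tested, -0.02. The filled circles, from 0.34 to 0.79, sit among mevalonate, sterol and SREBP genes. Under T-cell scaling of all 8 libraries, 0 of these genes were called, and *Msmo1*, *Ebp* and *Insig1* changed sign, to -0.02, -0.04 and -0.01.

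The mevalonate pathway opens with *Hmgcs1*, which encodes the cytosolic HMG-CoA synthase. Its level was 14.5, 18.9, 16.8 and 16.3 FPKM in flow-through replicates 1 to 4 and 29.0, 27, 25.6 and 24.2 FPKM in the enriched replicates of the same mice. Every enriched library was above every flow-through library. The difference was 0.64 on the log2 scale (SE 0.10, limma adjusted p = 0.0030), the ratio of means was 1.59, and the gene was higher in 4 of 4 mice. For this gene, as for the other 7 called members, an exact two-sided permutation of the 8 libraries gave p = 0.0286, the smallest that 4 against 4 can give. That test sets the pairing by mouse aside and restates that the libraries did not overlap. *Scap*, which was not called, gave the same value.

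The next enzymes of the pathway moved less. *Mvk* (mevalonate kinase) was at 8.64 ± 1.37 and 8.64 ± 1.55 FPKM and *Pmvk* (phosphomevalonate kinase) at 20.3 ± 5.62 and 20.8 ± 3.32 FPKM in the flow-through and enriched fractions (SD, n = 4). *Idi1* (isopentenyl diphosphate isomerase) was higher in the enriched fraction of 4 of 4 mice, with means of 23.9 ± 6.08 and 27.5 ± 4.59 FPKM, but did not pass the test with the mouse as a block (limma adjusted p = 0.0532) or without it (0.415). *Fdps*, which makes farnesyl diphosphate, was at 76.9, 57.2, 49.7 and 48.4 FPKM in the flow-through and 85.1, 74.2, 65.6 and 56.5 FPKM in the enriched fraction. The fractions overlapped, with mouse 1 the highest in both, and the difference of 0.28 on the log2 scale passed only in the fit that takes the mouse as a block (limma adjusted p = 0.0168, and 0.249 without the block). The annotation places 26.7% of the exonic bases of *Fdps* in the same-strand gene *Gm43738*, so its reads could be shared.

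Across the module, that block fit called 11 members higher, where 22.2% of all genes were, and 1 lower, where 22.7% were. It added *Fdps*, *Hsd17b7*, *Scd2* and *Fads2* and lost none of the 8.

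In the sterol branch, 5 of 11 members were higher (14.1% of all genes) and 10 of 11 had a positive log2 fold change (48.0% of all genes), with a median of 0.34. *Fdft1* encodes squalene synthase, the first enzyme that is committed to sterols. It was at 11.6, 9.72, 9.99 and 9.08 FPKM in the flow-through and 17.9, 14.6, 15.8 and 13.2 FPKM in the enriched fraction, with no overlap. The within-mouse ratios lay between 1.45 and 1.58 and gave 0.56 on the log2 scale (SE 0.11, limma adjusted p = 0.0087). Of its exonic bases, 18.3% overlap *Ctsb* on the opposite strand, which the counting may not have told apart.

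*Cyp51* encodes the lanosterol demethylase and had the highest log2 fold change of the 34 members. Its flow-through libraries were at 12.7, 11.6, 12.7 and 11.1 FPKM and its enriched libraries at 26.9, 19.6, 21.1 and 19.1 FPKM, so the groups were separate and mouse 1 had the steepest step. With a ratio of means of 1.81, it differed by 0.79 on the log2 scale (SE 0.11, limma adjusted p = 0.0025). After T-cell scaling it was 0.42 (SE 0.24, limma adjusted p = 0.189). That lies 0.79 above the median of all genes on that scale, a distance that such scaling leaves nearly unchanged.

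*Msmo1*, the methylsterol oxidase that acts after *Cyp51*, was at 14.9, 14.4, 14.1 and 13.1 FPKM in the flow-through and 22.5, 17.0, 18.4 and 15.8 FPKM in the enriched fraction. The groups did not overlap, but the lowest enriched library lay only just above the highest flow-through library. This gave a log2 fold change of 0.35 (SE 0.11) with a limma adjusted p of 0.0448. The call was kept in 1 of the 8 fits that leave out a single library, the one without enriched replicate 4, and the adjusted p reached 0.0999 in the others. It was 0.0506 without both libraries of mouse 1.

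*Ebp*, the sterol isomerase, had the highest level of the sterol branch, at 42.4, 37.2, 40.1 and 41.4 FPKM in the flow-through and 56.3, 49.4, 51.1 and 48.3 FPKM in the enriched fraction. All enriched libraries were above all flow-through libraries by 0.34 on the log2 scale (SE 0.08, limma adjusted p = 0.0131). *Sc5d*, which encodes the lathosterol desaturase late in the pathway, was at 10.2, 13.5, 12.6 and 12.3 FPKM against 21.4, 18.3, 19.6 and 19.1 FPKM. Here flow-through replicate 1 was the lowest library and enriched replicate 1 the highest, with ratios of 2.1 in mouse 1 and 1.36 to 1.56 in the other mice. *Sc5d* thus differed by 0.65 on the log2 scale (SE 0.10, limma adjusted p = 0.0030).

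*Hsd17b7*, the sterol ketoreductase, was the lowest of the branch, at 2.49, 2.96, 3.86 and 2.52 FPKM in the flow-through and 4.07, 3.98, 4.16 and 3.75 FPKM in the enriched fraction. It was higher in 4 of 4 mice but flow-through replicate 3 reached into the enriched range. The log2 fold change of 0.35 (SE 0.12) missed the threshold without the block (limma adjusted p = 0.0676) and passed it with the block (0.0385).

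The other 5 members of the branch overlapped between the fractions. *Sqle* (squalene epoxidase) was at 17.5 ± 4.97 and 19.9 ± 3.54 FPKM, *Lss* (lanosterol synthase) at 8.34 ± 1.84 and 9.07 ± 2.04, and *Nsdhl* (a sterol dehydrogenase) at 14.5 ± 2.16 and 15.9 ± 1.44 in the flow-through and enriched fractions (SD, n = 4). *Dhcr7*, the last reductase before cholesterol, was at 26.4 ± 2.05 and 28.2 ± 3.01 FPKM. *Tm7sf2*, a sterol reductase, was the only member of the branch with a negative log2 fold change, -0.15 (SE 0.10, limma adjusted p = 0.273), and shares 12.1% of its exonic bases with *Vps51* on the same strand. Its means were 10.2 ± 0.75 and 9.08 ± 1.03 FPKM.

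**Figure D2:**
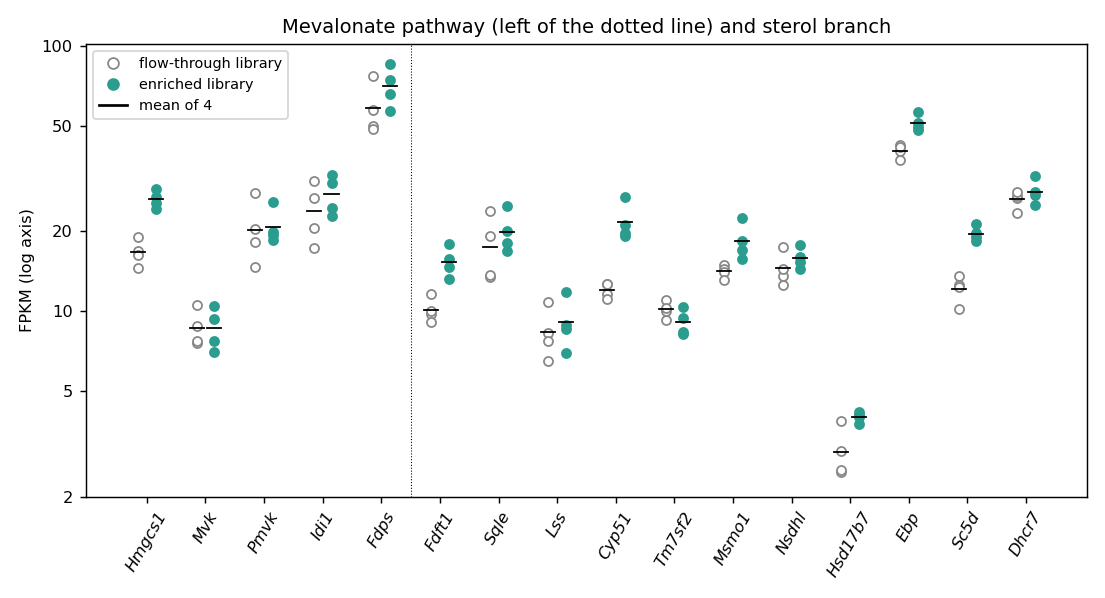
FPKM on a log axis (y) of the 5 mevalonate pathway members and the 11 sterol branch members (x) in each of the 4 flow-through libraries (open circles) and 4 enriched libraries (filled circles), with the mean of 4 as a bar. The open and filled circles are separate for *Hmgcs1*, *Fdft1*, *Cyp51*, *Msmo1*, *Ebp* and *Sc5d* and mix for the other 10 genes.

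Summed over the 16 mevalonate and sterol members, the level was 345.1, 279.5, 294.6 and 265.2 FPKM in flow-through replicates 1 to 4 and 427.9, 356.8, 358.8 and 321.7 FPKM in the enriched replicates. The sums overlapped between the fractions, and mouse 1 was the highest in both. Within a mouse, the ratio of enriched to flow-through was 1.21 to 1.28. The summed level of 19 proliferation genes moved beside it, from 1628 to 2733 FPKM in the flow-through and from 2148 to 3035 in the enriched fraction. Its ratios within a mouse were 1.11 to 1.34. Of the 19, 5 were called higher (14.1% of all genes) and 12 with the block (22.2%). Of 10 naive T-cell genes, 4 were called lower (13.7% of all genes) and 6 with the block (22.7%). Log2 fold changes were negative for 7 of them, such as *Ccr7* (-1.27). They were positive for 3, *Il7r* (0.17), *S1pr1* (0.17) and *Klf2* (0.21). The median log2 fold change of the 10 was -0.65, with sums of 706.3 to 1462 FPKM in the flow-through and 854.6 to 1016 in the enriched fraction. The sum rose in mouse 1 (ratio 1.21) and fell in the other mice (0.64 to 0.81). The part of either list in the sterol result was not tested.

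The promoters are shown because several of these genes are known SREBP targets, and no part of the promoter in the difference between the fractions was tested. RefSeq promoter windows (GRCm38.p6, 250 bases before to 50 after the start of the gene) were at hand for 28 of the 35 listed genes, *Mvd* included, and for all called members but *Fdft1*. The sterol regulatory element through which SREBPs bind was searched on both strands as TCACNCCAC. It was found in 1 of 28 members, *Hmgcs1*, and in 1.44% of 27025 genes. The box of NF-Y, a factor known to work beside SREBPs, was searched on both strands as CCAAT and was found in 22 of 28 members (78.6%), against 41.1% of all genes with a window and 43.2% of the 8742 tested genes with one. All 7 called members with a window held it, and 15 of the 21 others did (71.4%). The members without it were *Scap*, *Acaca*, *Elovl6*, *Fads2*, *Abca1* and *Nr1h2*. The Sp1 box GGGCGG was found in 22 of 28 members (78.6%), against 68.8% of tested genes, with the same split of 7 of 7 called members and 15 of the 21 others, and the E-box-like SREBP site TCACNTGA in 1 of 28, *Insig2*, against 4.78% of all genes. These are matches of letters, overlapping matches of different motifs were each counted, and a missing match says nothing about binding.

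The windows below are shown because they hold these boxes in the called members. Each gives 30 bases, 5′ to 3′ on the strand of the gene, with the matched box in capitals (ATTGG is CCAAT read on the other strand), after its place in GRCm38.p6 and the distance from the first base of the box to the RefSeq start. GENCODE M21 starts *Cyp51* and *Msmo1* further upstream, so their windows lie inside its gene models.
*Hmgcs1*, sterol regulatory element, chr13:119690204-119690233, plus strand, 137 bases before the start: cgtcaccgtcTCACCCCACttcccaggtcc
*Hmgcs1*, NF-Y box, chr13:119690294-119690323, plus strand, 45 bases before the start: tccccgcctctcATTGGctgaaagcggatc
*Cyp51*, NF-Y box, chr5:4104709-4104738, minus strand, 29 bases before the start: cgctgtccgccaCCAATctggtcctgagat
*Msmo1*, NF-Y box, chr8:64733616-64733645, minus strand, 55 bases before the start: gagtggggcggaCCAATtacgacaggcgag
*Ebp*, NF-Y box, chrX:8193550-8193579, minus strand, 55 bases before the start: atccctgtactgATTGGttcgtcagattcg
*Sc5d*, NF-Y box, chr9:42264307-42264336, minus strand, 24 bases before the start: cgccggctgctgATTGGccggctgcctgca
*Srebf2*, NF-Y box, chr15:82147122-82147151, plus strand, 135 bases before the start: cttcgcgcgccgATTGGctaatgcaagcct
*Insig1*, NF-Y box, chr5:28071184-28071213, plus strand, 216 bases before the start: cgccctcctcccATTGGctccggcggcctc

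Of the SREBP machinery, 2 of 5 members were higher, against 14.1% of all genes. *Srebf2* encodes SREBP-2, the form known for driving cholesterol genes, and was at 44.4, 49.2, 46.6 and 48.9 FPKM in the flow-through and 71.8, 70, 66.6 and 66.9 FPKM in the enriched fraction. The 2 ranges were far apart compared with their own width. They differed by 0.53 on the log2 scale (SE 0.07, limma adjusted p = 0.0016), and by 0.50 to 0.55 when any library was left out.

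*Srebf1* encodes SREBP-1, the form known for driving fatty acid genes, and did not pass the test. It was at 81.9, 60.4, 63.2 and 71.6 FPKM in the flow-through and 70.9, 63.5, 61.7 and 69.2 FPKM in the enriched fraction, with full overlap and a log2 value of -0.05 (SE 0.11, limma adjusted p = 0.731). The ratio of *Srebf1* to *Srebf2* within a library averaged 1.47 ± 0.27 for the flow-through, between 1.23 and 1.84, and 0.96 ± 0.06 for the enriched fraction, between 0.91 and 1.03 (SD, n = 4). A ratio within a library does not depend on the scaling, and it shows unequal change of the 2 genes.

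*Insig1*, which retains SCAP in the endoplasmic reticulum and is itself a target of SREBPs, was at 12.9, 14.0, 14.0 and 13.5 FPKM in the flow-through and 19.0, 16.6, 18.2 and 17.0 FPKM in the enriched fraction. The groups did not overlap and differed by 0.36 on the log2 scale (SE 0.07, limma adjusted p = 0.0090). *Insig2*, its paralog, was at 10.4 ± 1.25 and 12.8 ± 3.22 FPKM and was not called (log2 fold change 0.26, limma adjusted p = 0.255). Part of this difference lay in enriched replicate 1, which was at 17.6 FPKM while the other 3 enriched libraries were at 10.6 to 11.6. Without both libraries of mouse 1, the log2 fold change of *Insig2* was 0.14. *Scap*, the escort, lay lower in the enriched fraction in 4 of 4 mice with no overlap, at 31.9, 31.5, 32.4 and 31.1 FPKM against 27, 30.2, 27.8 and 28.4 FPKM. Its log2 fold change of -0.16 (SE 0.06) missed the threshold (limma adjusted p = 0.0981), and 13.2% of its exonic bases overlap another annotated transcript on the other strand.

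**Figure D3:**
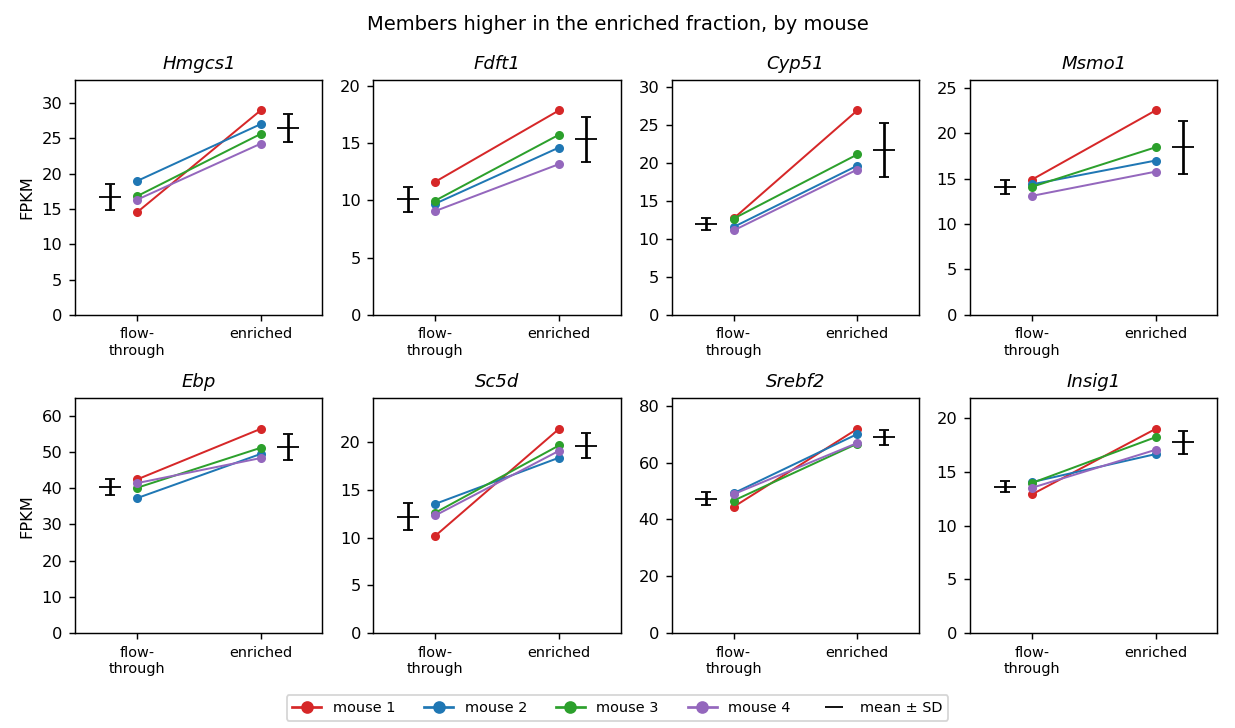
FPKM (y axis) of the 8 members called higher in the flow-through and enriched library of each mouse (lines), with mean ± SD of 4 libraries at the side. All lines rise in every panel on FPKM as deposited. Under T-cell scaling of all 8 libraries, 0 of the 8 members were called. The log2 fold changes of *Msmo1*, *Ebp* and *Insig1* turned to -0.02, -0.04 and -0.01 under it.

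None of the 10 fatty acid synthesis members was called with all 8 libraries and no block. The median log2 fold change of these members was 0.02, near the -0.02 of all genes, and 6 of the 10 were positive. *Acly*, which makes cytosolic acetyl-CoA, differed by 0.03 on the log2 scale, with 74.3 ± 3.57 FPKM in flow-through and 75.9 ± 3.35 in enriched libraries (SE 0.07, limma adjusted p = 0.758). *Acaca* (acetyl-CoA carboxylase) was at 10.8 ± 2.55 and 10.8 ± 3.33 FPKM, and *Fasn* (fatty acid synthase) at 35.2 ± 4.88 and 38.3 ± 1.06. These 3 enzymes of the core route differed between the fractions by less than the SD of the flow-through libraries, on FPKM as deposited.

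Among the elongases, *Elovl1* was at 80.9 ± 12.3 and 80.5 ± 7.60 FPKM. *Elovl5*, which lengthens polyunsaturated fatty acids, was at 60.2 ± 10.3 and 73.6 ± 1.76 FPKM and was higher in 3 of 4 mice, by 0.30 on the log2 scale (SE 0.12, limma adjusted p = 0.0862). It passed the test only without flow-through replicate 2, its highest flow-through library at 73.4 FPKM, or without both libraries of mouse 2. *Elovl6*, which lengthens saturated fatty acids, had the opposite sign, with 7.25 ± 1.39 and 5.38 ± 0.96 FPKM and lower values in the enriched fraction of 4 of 4 mice (log2 fold change -0.37, SE 0.15, limma adjusted p = 0.101).

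The desaturases *Fads2* and *Scd1* varied widely between mice. *Fads2*, the delta-6 desaturase that opens polyunsaturated fatty acid synthesis (mm10 chromosome 19, 10062765 to 10101746, minus strand), was at 68.4, 15.8, 30.3 and 19.3 FPKM in the flow-through and 22.3, 8.95, 14.1 and 5.56 FPKM in the enriched fraction. Every mouse was lower in the enriched fraction, with ratios from 0.29 to 0.56, but the mice differed so much that the fractions overlapped. Its log2 fold change of -1.25 was the largest in size of the 34 members, with SE 0.51 and limma adjusted p = 0.0969 without the block, and SE 0.15 and adjusted p = 0.0014 with it. Without both libraries of mouse 1, whose flow-through library was the highest, it was -1.15 (limma adjusted p = 0.0445, no block). T-cell scaling gave -1.62 (SE 0.61, limma adjusted p = 0.0844).

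*Fads1*, the delta-5 desaturase that lies beside *Fads2* (chromosome 19, 10182888 to 10196877, plus strand), was at 25.7, 12.6, 15.8 and 12.2 FPKM in the flow-through and 18.0, 11.3, 13.9 and 10.7 FPKM in the enriched fraction. It was lower in 4 of 4 mice but by less, with a log2 value of -0.25 (SE 0.25, limma adjusted p = 0.482, and 0.0537 with the block). The ratio of *Fads2* to *Fads1* within a library averaged 1.85 ± 0.60 for the flow-through and 0.89 ± 0.31 for the enriched libraries (SD, n = 4).

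*Scd2*, a stearoyl-CoA desaturase that makes monounsaturated fatty acids, was at 106.9, 60.6, 68.5 and 52.0 FPKM in the flow-through and 117.0, 81.8, 88.4 and 67.4 FPKM in the enriched fraction. Each mouse was higher in the enriched fraction, by ratios of 1.1 to 1.35, while the fractions overlapped. Its log2 value of 0.32 passed the test with the block (SE 0.07, limma adjusted p = 0.0114) and not without it (SE 0.24, 0.334). *Scd1*, its paralog, was at 11.1 FPKM in flow-through replicate 1 and 9.43 FPKM in enriched replicate 1, both from mouse 1, and at 1.83 to 3.27 and 2.69 to 3.57 FPKM in the other libraries. It showed no common direction (higher in 2 of 4 mice), and the *Scd2* to *Scd1* ratio was 21.8 ± 9.67 and 22.1 ± 6.79 (SD, n = 4). Reads of such close paralogs may be split by the counting.

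Flow-through replicate 1 was the highest flow-through library for *Fads2*, *Fads1*, *Scd1*, *Scd2* and *Elovl6*, and also for *Acly*, *Acaca* and *Elovl1*. It was the highest as well for many sterol members, such as *Fdps*, *Sqle* and *Ebp*, and for erythroid progenitor markers. These 14 markers, which include *Gata1* and *Car1*, summed to 2696, 958.9, 1501 and 1199 FPKM in the flow-through and to 720.5, 190, 478 and 194.8 in the enriched fraction. In the flow-through, the mice stood in the order 1, 3, 4 and 2 from high to low for both the marker sum and *Fads2*, and in the enriched fraction mice 1 and 3 led both. Of the 14 markers, 7 were called lower (13.7% of all genes) and 13 with the block (22.7%), and their median log2 fold change was -1.83. Their part in the *Fads2* result was not tested.

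**Figure D4:**
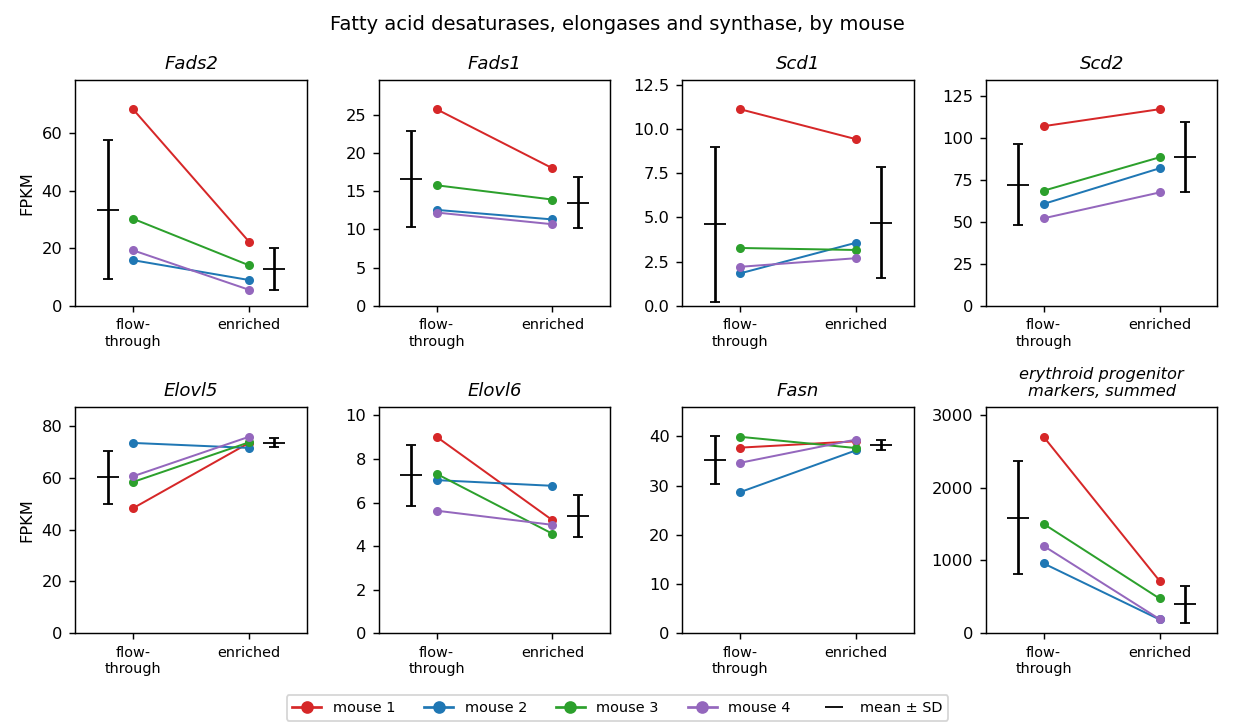
FPKM (y axis) of 7 fatty acid synthesis members, and of 14 erythroid progenitor markers summed, in the flow-through and enriched library of each mouse (lines), with mean ± SD of 4 libraries at the side. *Fads2* and the marker sum are lower in the enriched library of every mouse and highest in the flow-through library of mouse 1 (68.4 and 2696 FPKM), *Scd2* is higher in the enriched library of every mouse on FPKM as deposited (log2 value 0.32, and -0.06 under T-cell scaling), and the other panels show smaller or mixed steps.

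The 3 sterol efflux members held no call on FPKM as deposited. *Abca1*, the cholesterol exporter of the cell surface, lay close to the minimum of 1 FPKM, at 1.23, 2.07, 1.81 and 2.45 FPKM in the flow-through and 0.84, 1.53, 1.5 and 1.43 FPKM in the enriched fraction. It was lower in 4 of 4 mice, but the fractions overlapped, with a log2 value of -0.31 (SE 0.17, limma adjusted p = 0.213). T-cell scaling without the block made it the only member called, at -0.53 (SE 0.15, limma adjusted p = 0.0441), where the median of all genes was -0.37. With that scaling and the block it was not called (limma adjusted p = 0.0529), while *Elovl6* (-0.71, adjusted p = 0.0415) and *Fads2* (-1.62, adjusted p = 7.9e-05) were called lower. *Abcg1*, which exports cholesterol to lipoproteins, was at 17.0 ± 4.95 and 16.9 ± 1.08 FPKM, and flow-through replicate 1 was low at 9.93 FPKM against 17.6 to 20.9 in the other 3. *Nr1h2*, which encodes the LXRβ receptor, was at 72.2 ± 9.65 and 73.7 ± 3.00 FPKM (SD, n = 4).

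**Figure D5:**
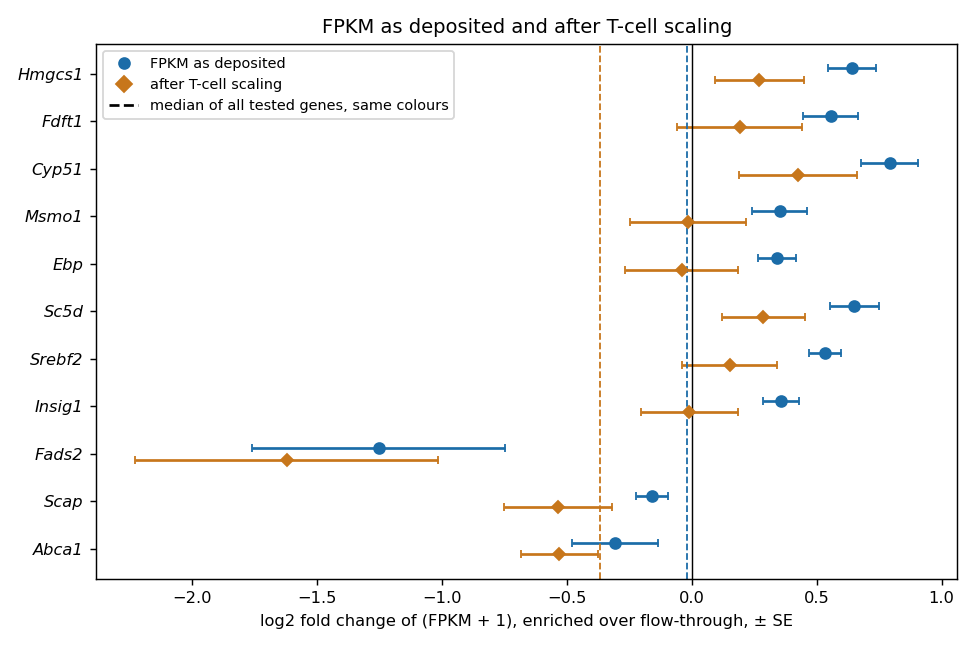
Log2 fold change of (FPKM + 1) with SE (x axis) of the 8 called members and of *Fads2*, *Scap* and *Abca1* (y axis), for FPKM as deposited (circles) and after T-cell scaling (diamonds), with the median of all genes tested as a dashed line for each. Scaling moves the plotted genes and the median, from -0.02 to -0.37, to the left, *Abca1* by less than the median. *Msmo1*, *Ebp* and *Insig1* thereby cross 0. The 8 called members stay to the right of the median, which a shift shared by nearly all genes leaves in place.

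Genes of the same pathways outside the module were taken as 4 lists with 76 different names, of which 60 were tested. Over them 9 were higher and 10 lower, where 14.1% and 13.7% of all genes were, so their share was near that of all genes, with a median log2 fold change of -0.04, where all genes had -0.02. With the mouse as a block, 11 were higher and 16 lower, where 22.2% and 22.7% of all genes were.

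Of 12 tested genes of other sterol synthesis steps, 2 were higher and 2 lower, which is near the 14.1% and 13.7% of all genes. With the block, 2 were higher and 3 lower (22.2% and 22.7% of all genes). *Lbr*, a sterol reductase of the nuclear envelope, was at 123.1 ± 4.67 and 173.0 ± 8.63 FPKM (0.49, SE 0.07, limma adjusted p = 0.0021). *Por*, which passes electrons to *Cyp51* and *Sqle*, and *Coq2*, of the ubiquinone branch, were lower by log2 values of -0.41 and -0.49 (limma adjusted p = 0.0068 and 0.0023). These 3 genes kept their calls when any single library was left out, and after T-cell scaling *Lbr* was at 0.10 (limma adjusted p = 0.710).

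Of 16 other fatty acid genes tested, 6 were lower, against 13.7% of all genes, and 1 was higher, against 14.1%. The largest were *Acsl6* (-1.52), *Hacd1* (-1.33), *Acsl1* (-1.09), *Acss2* (-0.87) and *Slc25a1* (-0.72), with limma adjusted p of 0.0374, 0.0096, 0.0066, 0.00065 and 0.0256. The gene called higher was *Mid1ip1*, an activator of acetyl-CoA carboxylase, named here after its values were seen, at 0.36 (SE 0.11, limma adjusted p = 0.0402), which became -0.01 under T-cell scaling. The *Acsl* genes encode acyl-CoA synthetases that activate fatty acids, *Acss2* makes acetyl-CoA from acetate, and *Slc25a1* exports citrate from mitochondria. Each of the 5 was lower in 4 of 4 mice. *Mid1ip1* kept its call in 2 of the 8 fits that leave out a single library, those without flow-through replicate 1 or enriched replicate 2. *Acsl6* and *Slc25a1* lost the call without flow-through replicate 3 or without enriched replicate 2, 3 or 4 (adjusted p up to 0.0979 and 0.0717). As for *Fads2*, erythroid progenitor markers were lower in the same libraries and their part was not tested.

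Of 12 tested genes of SREBP processing and turnover, 1 was higher (14.1% of all genes) and 0 were lower (13.7%) by limma. At an unadjusted p under 0.05, 4 were higher and 1 lower, against 2433 and 2594 of the 12166 genes. With the mouse as a block and adjustment, 3 were higher (22.2% of all genes) and 0 lower (22.7%).

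Of 21 tested genes of sterol uptake, transport, esterification and LXR action, 6 were higher and 2 lower, against 14.1% and 13.7% of all genes. *Soat1* and *Soat2*, the acyltransferases that store cholesterol as esters, were at 12.2 ± 3.37 and 4.73 ± 0.66 FPKM in the flow-through and 25.3 ± 4.55 and 7.79 ± 0.47 in the enriched fraction (log2 fold changes 1.02 and 0.62, limma adjusted p = 0.0085 and 0.0044). *Rxra*, the partner receptor of LXR, rose from 10.7 ± 1.93 to 35.6 ± 1.02 FPKM (1.66, SE 0.12, limma adjusted p = 0.00025). *Rxrb*, the related receptor, was the other gene called lower, and was singled out after its values were seen (49.7 ± 2.1 and 36.8 ± 1.63 FPKM, -0.43, limma adjusted p = 0.0036). *Cyp27a1*, a sterol hydroxylase, was at 3.24 ± 1.57 and 9.52 ± 3.93 FPKM (1.29, limma adjusted p = 0.0302). It lost its call without flow-through replicate 1 or 3 or without enriched replicate 2, 3 or 4 (adjusted p up to 0.0848). After T-cell scaling *Soat1* kept its call (0.66, limma adjusted p = 0.0407), while *Soat2* (0.28, adjusted p = 0.347) and *Cyp27a1* (0.99, adjusted p = 0.0624) lost theirs. *Apoe*, the apolipoprotein made by macrophages and other cells, fell from 70.1 ± 12 to 21.8 ± 6.24 FPKM (-1.67, SE 0.21, limma adjusted p = 0.0016). Myeloid markers, 4 of 10 tested higher (14.1% of all genes), moved with *Soat1* and *Cyp27a1* and against *Apoe*, and their part was not tested.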

How the data were processed

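RNA was extracted from 4 flow-through and 4 IL-18Rα-hi-enriched preparations, made into stranded poly(A) libraries and sequenced as 150 bp paired ends. Per the submitters' processing notes, the authors used TopHat, Cufflinks 2.1.1 and mm10, and deposited FPKM, which were used as given. The annotation release was not given in the sources used here, and Cufflinks by default ignores strand, so genes that overlap or have close paralogs are uncertain. Identifiers matched GENCODE M21 for 98.9% of entries, and *Mvd* was not found by name. FPKM carry no counts, so depth was estimated from the smallest steps of long single-transcript genes and no counting interval is given.

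Fractions were compared by limma (version 3.58.1, R 4.3.3) after a log2(FPKM + 1) transformation, a scale that understates changes of low genes, with a mean-variance trend, no block, a minimum mean of 1 FPKM and Benjamini-Hochberg adjustment at 0.05. The fit was run on simulated data with independent libraries, which does not test the effect of pairing by mouse. The paper draws both fractions from the same cells, and the labels number each fraction from 1 to 4 without naming a mouse. A shared number was taken as the same mouse. Deviations from group means correlated at 0.31 to 0.66 within such a pair, so values with the mouse as a block are printed where they change the call of a member. For genes outside the module, the block is given only as counts of calls. Alternatives were a pseudocount of 0.1, no filter, a minimum of 5 FPKM, quantile normalization, no trend, T-cell scaling and leaving out each library. Others were chosen after seeing the data: leaving out a mouse, T-cell scaling with the block, and T-cell scaling without mouse 1.

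The members and lists were chosen with earlier results of these data known. Members called in either fit were given in every library and the rest by mean and SD or range, except *Srebf1*, *Scap*, *Fads1* and *Abca1*, which were given in every library after their values were seen. Genes of other lists were given by counts, with values for at most 5 called genes by size and for *Mid1ip1* and *Rxrb*, singled out later. Promoter windows came from RefSeq. Some genes of the other lists are not reported here by name, and the counts include them.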

Additional observations from a re-analysis of the deposited data

Results flagged for a closer look

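A single library stood far from the other 3 of its fraction in 5 of 68 sets of 4 values, where chance gives about 3.4, and all 5 came from mouse 1. Enriched replicate 1 had *Insig2* at 17.6 FPKM, where the other enriched libraries had 10.6 to 11.6. *Scd1* was high in both libraries of this mouse, at 11.1 FPKM in flow-through replicate 1 (1.83 to 3.27 in the others) and 9.43 FPKM in enriched replicate 1 (2.69 to 3.57). *Abca1* was low in enriched replicate 1, at 0.84 FPKM against 1.43 to 1.53, and *Abcg1* was low there too, at 15.3 FPKM against 17.3 to 17.6.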

How the results depend on the processing

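The number of members called higher, 8, was 7 to 11 with the mouse as a block, another pseudocount, another filter, quantile normalization or no variance trend, and 7 to 8 with a single library left out. It was 7 without mouse 1 or 2, 4 without mouse 3 and 5 without mouse 4, and 0, 0 and 4 after T-cell scaling, with that scaling and the block, and with that scaling without mouse 1. Of all 12166 genes, 1790, 1103, 452 and 857 were called higher without mouse 1, 2, 3 and 4. In the fits with T-cell scaling, in the same order, 521, 601 and 1041 were. *Hmgcs1*, *Cyp51*, *Sc5d* and *Srebf2* were called in every fit run except T-cell scaling of all 8 libraries, with or without the block. Members called lower numbered 1 with the block and 1 without mouse 1 (*Fads2* in each), and 1, 2 and 3 in the 3 fits with T-cell scaling. Of all 12166 genes, 2763 were lower with the block, 1557 without mouse 1, and 1421, 2697 and 2253 in the fits with T-cell scaling. The median log2 fold change of the members, 0.13, was -0.25 after T-cell scaling with or without the block, -0.008 after it without mouse 1, and 0.076 to 0.22 with a single library left out, highest without flow-through replicate 1. After T-cell scaling with or without the block *Msmo1*, *Ebp* and *Insig1* were at -0.016, -0.041 and -0.0093, and after T-cell scaling without mouse 1 *Abcg1* was at -0.30. The block raised the calls over all genes from 1720 higher and 1664 lower to 2705 and 2763 and changed no call of the module besides *Fdps*, *Hsd17b7*, *Scd2* and *Fads2*. T-cell scaling lowered them to 521 and 1421. Over single members and alternatives, 589 values kept their sign and side of the threshold, 32 lost the call, 13 gained it and 7 that were called in either fit changed sign. Another 70, called in neither fit, changed sign, 40 of them under T-cell scaling. The causes of these changes were not tested. FPKM carry no counts, so the counting error of members near 1 FPKM, such as *Abca1*, is unknown.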
